A study of Rattus norvegicus with 54 samples.

Results

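Magnesium-free medium was compared with magnesium-containing medium after 6 h in cultures of rat cortical neurons, over all 18 libraries that the labels place at 6 h, of 54 in the whole series. The 9 libraries without magnesium and the 9 with magnesium fell into 6 groups of 3. The cultures came from the cortex of E18 rat embryos and were either left untransfected (Ctrl in the labels, called untransfected here), given an adeno-associated virus with GFP (AAV_SYN_GFP, called GFP), or given one with rMBD3 and GFP (AAV_SYN_rMBD3_GFP, called rMBD3). SYN is the usual name of the synapsin promoter, which restricts a transgene to neurons. The labels term the magnesium-free condition epileptiform and number the cell cultures 1, 2 and 3, and each number occurs once in each of the 6 groups, giving 9 pairs of libraries with the same construct and culture and opposite media. These 9 pairs came from 3 numbered cultures, so pairs that share a number are not independent cultures, and nothing in the labels says what else same-numbered cultures had in common.

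Magnesium ions block the pore of the NMDA receptor, a glutamate-gated channel, at resting membrane potential. Removing them from the medium lets the receptor conduct at rest, and networks of cultured neurons then fire in recurrent synchronous bursts that are used as a model of seizure activity. Calcium entering through NMDA receptors and voltage-gated channels is known to start transcription in waves, first of immediate early genes, which mostly encode transcription factors, and hours later of effector genes of synapses and secretion. MBD3, the protein that the rMBD3 virus carries, is a subunit of the NuRD complex, which remodels and deacetylates chromatin. The comparison at 6 h asks which mRNAs differ between the media at a time when the later wave can be present.

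The 6 h libraries held 16965518 to 31712521 counted read pairs without magnesium (median 25616677) and 22642114 to 27880475 with magnesium (median 25496707). The count table gives genes by Ensembl identifier only, and 0 of its 30560 identifiers matched the symbol table at hand, so the genes below are known by identifier and position and their functions are not given. For the same reason the neuronal label could not be checked against cell type markers, and gene families and pathways were not analysed here. The 6 libraries of culture 1 stood apart from the other 12 on the first principal component, so the counts of genes at 6 h, the correlations between constructs and the values of gene groups are also given for cultures 2 and 3 alone. One gene set rMBD3 cultures apart from untransfected and GFP cultures, but not these from each other, and was picked after its values were seen. ENSRNOG00000028956 stood at 8000 to 10900 CPM (the count per 1e6 counted read pairs, with TMM-scaled library sizes) in the 6 rMBD3 libraries and at 164 to 272 CPM in the other 12. Its level was 0.17 ± 0.11 (SE) higher without magnesium on the log2 scale, which did not pass the test (edgeR quasi-likelihood, adjusted p = 0.739).

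No gene passed the test for a difference between the media at 6 h. Of 15985 genes with enough counts, 0 (0%) had a Benjamini-Hochberg adjusted p below 0.05 in edgeR's quasi-likelihood test with construct and culture number as blocks, and the lowest adjusted p was 0.725. Without adjustment, 1076 genes (6.73%) had a p below 0.05. Of these, 514 (3.22%) were higher and 562 (3.52%) lower without magnesium. DESeq2 with the same design called 18 of the 19639 genes it tested, and 14 of those called had counts in at most 2 of the 18 libraries. Only 3 of the 18 called were among the 15985 genes. DESeq2 limited to the 15985 genes called 1.

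Within this model the data bounded the size of most differences rather than leaving them open. The median log2 fold change over all genes was -0.00264 and the median absolute log2 fold change was 0.12. Over the 12490 genes with a mean log2 CPM of at least 1, the 95% confidence interval of the log2 fold change had a median half-width of 0.23. In 12306 of these (98.5%) the interval lay within 2-fold in either direction, and in 10668 (85.4%) it lay within 1.5-fold. Among all 15985 genes the interval lay within 2-fold for 13116 (82.1%). Within this model a change common to the constructs of more than 2-fold was therefore outside the interval of nearly every well-measured gene. These intervals treat the 9 pairs as independent although they came from 3 cultures, so they may be too narrow. Changes below about 1.5-fold, and possibly larger ones, could go uncalled for many genes. The smallest change that would pass the adjusted test was not computed. The libraries are bulk RNA, in which fewer cells of a type and less RNA per cell cannot be told apart.

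**Figure D1:**
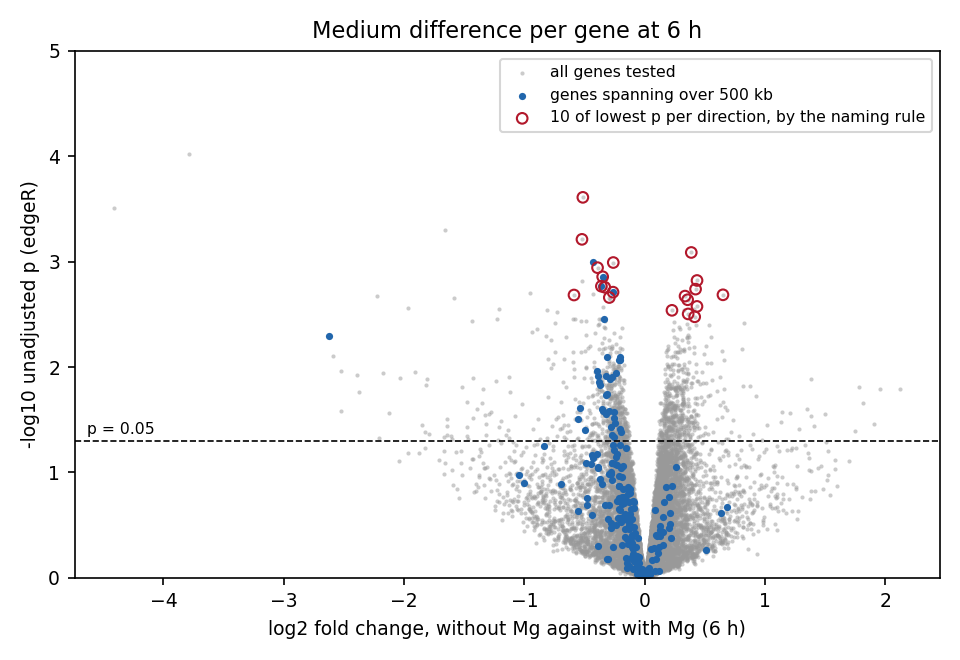
Log2 fold change without against with magnesium (horizontal axis) and -log10 unadjusted p from edgeR (vertical axis) for the 15985 genes tested at 6 h. Grey points are all genes, blue points the 200 genes spanning over 500 kb, and red rings the 10 genes of lowest p in each direction under the naming rule; the dashed line marks an unadjusted p of 0.05, which 1076 genes passed, and no gene passed after adjustment.

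The cultures differed from each other far more than the media did. On the first principal component of log2 CPM over the 18 libraries, which held 31.6% of the variance, culture number accounted for 90.8% of the spread and medium for 0.122%. All 6 libraries of culture 1 lay between -85.4 and -34.1 on it, and all 12 libraries of cultures 2 and 3 between 9 and 51.1. Construct accounted for 58.9% of the spread on the second component and medium for 3.28%; that component held 11.7% of the variance. The biological coefficient of variation at 6 h was 22.8%.

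**Figure D2:**
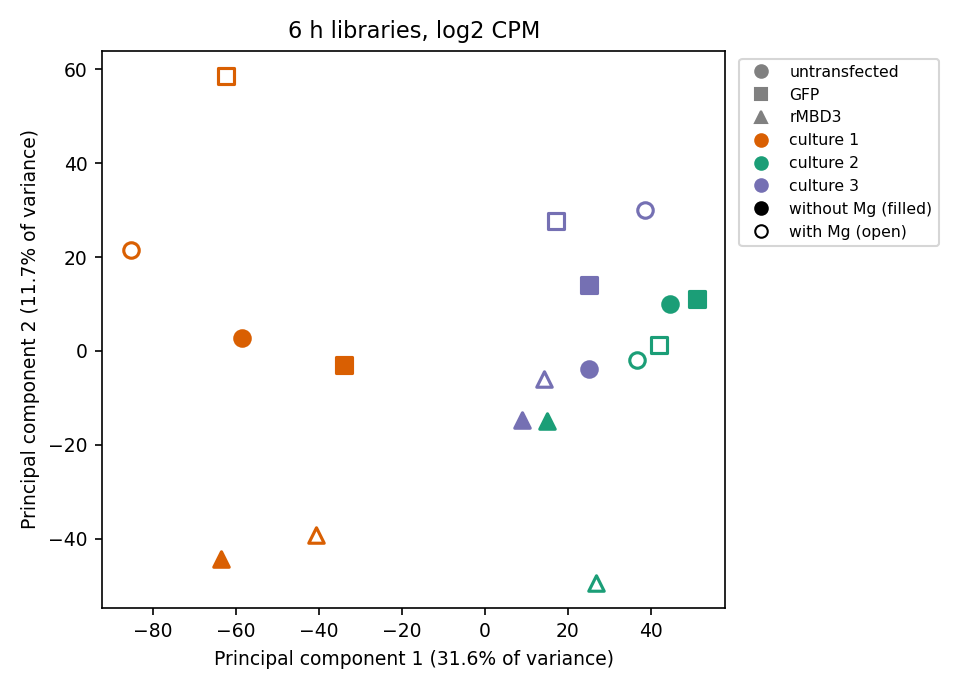
The first and second principal components of log2 CPM for the 18 libraries at 6 h; colour gives the culture number, shape the construct, and filled or open symbols the medium without or with magnesium. Culture 1 lies at the left, from -85.4 to -34.1, and cultures 2 and 3 at the right, from 9 to 51.1, with filled and open symbols intermixed.

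Measures of whole libraries did not differ detectably between the media either. Genes of the mitochondrial genome took 2.58% ± 0.737 of the counts without magnesium and 2.99% ± 1.10 with it (SD, n = 9 each; exact sign-flip permutation test over 9 pairs, two-sided p = 0.348, adjusted p = 0.588 over 4 measures). The share was higher without magnesium in 5 of 9 pairs. The widest gap was in the untransfected pair of culture 1, at 2.04% without and 4.90% with magnesium, which was the highest share of the 18 libraries. The untransfected pairs of cultures 2 and 3 stood at 1.87% and 1.80%, and at 2.05% and 1.86%, without and with magnesium. The 50 most abundant genes took 13.2% ± 1.26 without and 13% ± 1.32 with magnesium (SD, n = 9 each; exact permutation p = 0.289, adjusted p = 0.588). The number of genes detected differed by -261 (exact permutation p = 0.441, adjusted p = 0.588) and the total count by 241000 (exact permutation p = 0.883, adjusted p = 0.883).

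The 4 genes described next had the lowest p in each direction among genes with a mean log2 CPM of at least 1 and the same sign in at least 8 of 9 pairs. None of them passed the adjusted threshold. They show the sizes that stood behind the strongest unadjusted values.

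ENSRNOG00000045764 (mRatBN7.2 chromosome 2, 222664771 to 222689365, plus strand) was lower without magnesium in all 9 pairs. With magnesium its level in cultures 1, 2 and 3 was 12.6, 12.7 and 14.2 CPM in untransfected, 17.4, 14.4 and 18.3 CPM in GFP, and 8.95, 10.0 and 13.8 CPM in rMBD3 cultures. Without magnesium it was 5.97, 10.1 and 10.6 CPM in untransfected, 11.7, 13.2 and 11 CPM in GFP, and 7.63, 8.28 and 7.14 CPM in rMBD3 cultures. Within each construct the 3 libraries without magnesium lay below the 3 with magnesium, while the groups of 9 overlapped because GFP cultures were high and rMBD3 cultures low in both media. The log2 fold change was -0.51 ± 0.11 (SE; 95% interval -0.75 to -0.28; edgeR adjusted p = 0.725). DESeq2 with the same design gave -0.52 with an adjusted p of 0.0105, and DESeq2 on the filtered genes gave 0.0688.

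ENSRNOG00000053122 (chromosome 3, 50952791 to 51071699, minus strand) was lower without magnesium in 8 of 9 pairs. With magnesium it stood at 14.7 to 27.1 CPM (median 21.9), and without at 10.3 to 18 CPM (median 14.4). The exception was the untransfected pair of culture 2, at 14.7 CPM with and 15.1 CPM without magnesium, and the groups of 9 overlapped between 14.7 and 18 CPM. The log2 fold change was -0.52 ± 0.13 (SE; 95% interval -0.79 to -0.26; edgeR adjusted p = 0.725). By construct it was -0.60 ± 0.20 in untransfected, -0.79 ± 0.20 in GFP and -0.18 ± 0.20 in rMBD3 cultures (SE), and the difference between rMBD3 and GFP, 0.62 ± 0.29, did not pass (edgeR adjusted p = 0.822).

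ENSRNOG00000015941 (chromosome 10, 85346126 to 85427330, plus strand) was higher without magnesium in all 9 pairs. With magnesium its level in cultures 1, 2 and 3 was 36.8, 68.6 and 48.8 CPM in untransfected, 27.4, 61.1 and 40.9 CPM in GFP, and 40.4, 55.2 and 43.3 CPM in rMBD3 cultures. Without magnesium it was 76.6, 75.1 and 68.2 CPM in untransfected, 49.8, 62.8 and 44.9 CPM in GFP, and 46.6, 65.8 and 54.7 CPM in rMBD3 cultures. The gap was widest in the untransfected and GFP pairs of culture 1, and the groups of 9 overlapped. The log2 fold change was 0.39 ± 0.10 (SE; 95% interval 0.18 to 0.59; edgeR adjusted p = 0.725).

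ENSRNOG00000007743 (chromosome 4, 171029630 to 171044892, plus strand) was also higher without magnesium in all 9 pairs. It stood at 9.06 to 30.2 CPM with magnesium (median 19.7) and at 18.1 to 42.7 CPM without (median 23.3). Its lowest library was the untransfected culture 3 with magnesium, at 9.06 CPM against 18.5 CPM without. The groups of 9 overlapped. The log2 fold change was 0.43 ± 0.12 (SE; 95% interval 0.19 to 0.68; edgeR adjusted p = 0.725).

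The gene of lowest p in the whole table was a scarce mRNA, described here because of that rank and chosen after its values were seen. ENSRNOG00000014464 (chromosome 16, 79462402 to 79492693, minus strand) had 88 counts in all over the 9 libraries with magnesium and 8 over the 9 without. With magnesium cultures 1, 2 and 3 had counts of 15, 4 and 9 when untransfected, 12, 14 and 7 with the GFP virus, and 10, 11 and 6 with the rMBD3 virus. Without magnesium 7 of the 9 libraries had 0 counts, and the other counts were 7 in GFP culture 1 and 1 in rMBD3 culture 1. The transcript was thus seen in every magnesium library and in 2 magnesium-free ones, and the groups overlapped only through that GFP library, at 0.292 CPM against 0.154 to 0.562 CPM with magnesium. A floor of 3 counts equalled 0.0946 to 0.177 CPM in the 6 h libraries and covers counting error only. The fitted log2 fold change was -3.78 ± 0.76 (SE; edgeR adjusted p = 0.725), a value that depends on how 0 counts are treated. It was the 1 gene that DESeq2 called on the filtered genes (adjusted p = 0.0189).

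At the other times ENSRNOG00000014464 did not show the same separation. At 2 h it had 31 counts with and 28 without magnesium over 9 libraries each. At 24 h it had 53 counts with and 20 without, and 18 of the 20 were in 1 library.

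Because culture 1 stood apart, the comparison was repeated on cultures 2 and 3 alone. Then 3 of 15862 genes (0.0189%) passed in edgeR's test, all 3 higher without magnesium, and 801 (5.05%) had an unadjusted p below 0.05, 427 (2.69%) of them higher and 374 (2.36%) lower. The 3 genes are small, with spans of 4767, 2817 and 1716 bases, and are named because of this result, after their values were seen. Their SE and p in this fit treat 6 pairs as independent although these came from cultures 2 and 3 only. Leaving out culture 2 or culture 3 instead gave 0 genes called.

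ENSRNOG00000020009 (chromosome 1, 202281958 to 202286724, minus strand) was higher without magnesium in 8 of 9 pairs. With magnesium its level in cultures 1, 2 and 3 was 230, 93.3 and 85.8 CPM in untransfected, 346, 90.5 and 117 CPM in GFP, and 144, 110 and 151 CPM in rMBD3 cultures. Without magnesium it was 242, 128 and 142 CPM in untransfected, 274, 134 and 220 CPM in GFP, and 229, 244 and 287 CPM in rMBD3 cultures. The exception was the GFP pair of culture 1, whose magnesium library was the highest of the 18. Within each construct the libraries of cultures 2 and 3 without magnesium lay above those with magnesium. In cultures 2 and 3 the log2 fold change was 0.79 ± 0.10 (SE; edgeR adjusted p = 0.0165), and over all 3 cultures it was 0.55 ± 0.18 (adjusted p = 0.725). The untransfected and GFP pairs of culture 1 had the lowest differences of this gene, at 0.07 and -0.34 on the log2 scale. Leaving out only these, chosen after seeing the data, gave 0.77 with an edgeR adjusted p of 0.00226. It was then the single gene called. Dropping its lowest pairs was bound to raise the value, so this refit is no separate evidence.

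ENSRNOG00000019661 (chromosome 16, 18805239 to 18808055, plus strand) differed by 0.40 ± 0.06 on the log2 scale in cultures 2 and 3 (SE; edgeR adjusted p = 0.0356). Its 6 libraries of cultures 2 and 3 with magnesium lay at 586 to 740 CPM and the 6 without at 777 to 1090 CPM, so these did not overlap. In culture 1 the pairs disagreed, at 104 with and 594 CPM without magnesium in untransfected, 281 and 1080 CPM in GFP, and 1270 and 1140 CPM in rMBD3 cultures. Over all 3 cultures the log2 fold change was 0.60 ± 0.26 (edgeR adjusted p = 0.725).

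ENSRNOG00000023546 (chromosome 12, 20794028 to 20795743, minus strand) followed the same layout. In cultures 2 and 3 it stood at 87.6 to 158 CPM with and 111 to 217 CPM without magnesium, higher without in all 6 pairs, by 0.39 ± 0.06 (SE; edgeR adjusted p = 0.0356). In culture 1 it went from 49.3 with to 141 CPM without magnesium in untransfected, from 110 to 251 CPM in GFP, and from 607 to 463 CPM in rMBD3 cultures. Over all 3 cultures the log2 fold change was 0.39 ± 0.28 (edgeR adjusted p = 0.765).

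**Figure D3:**
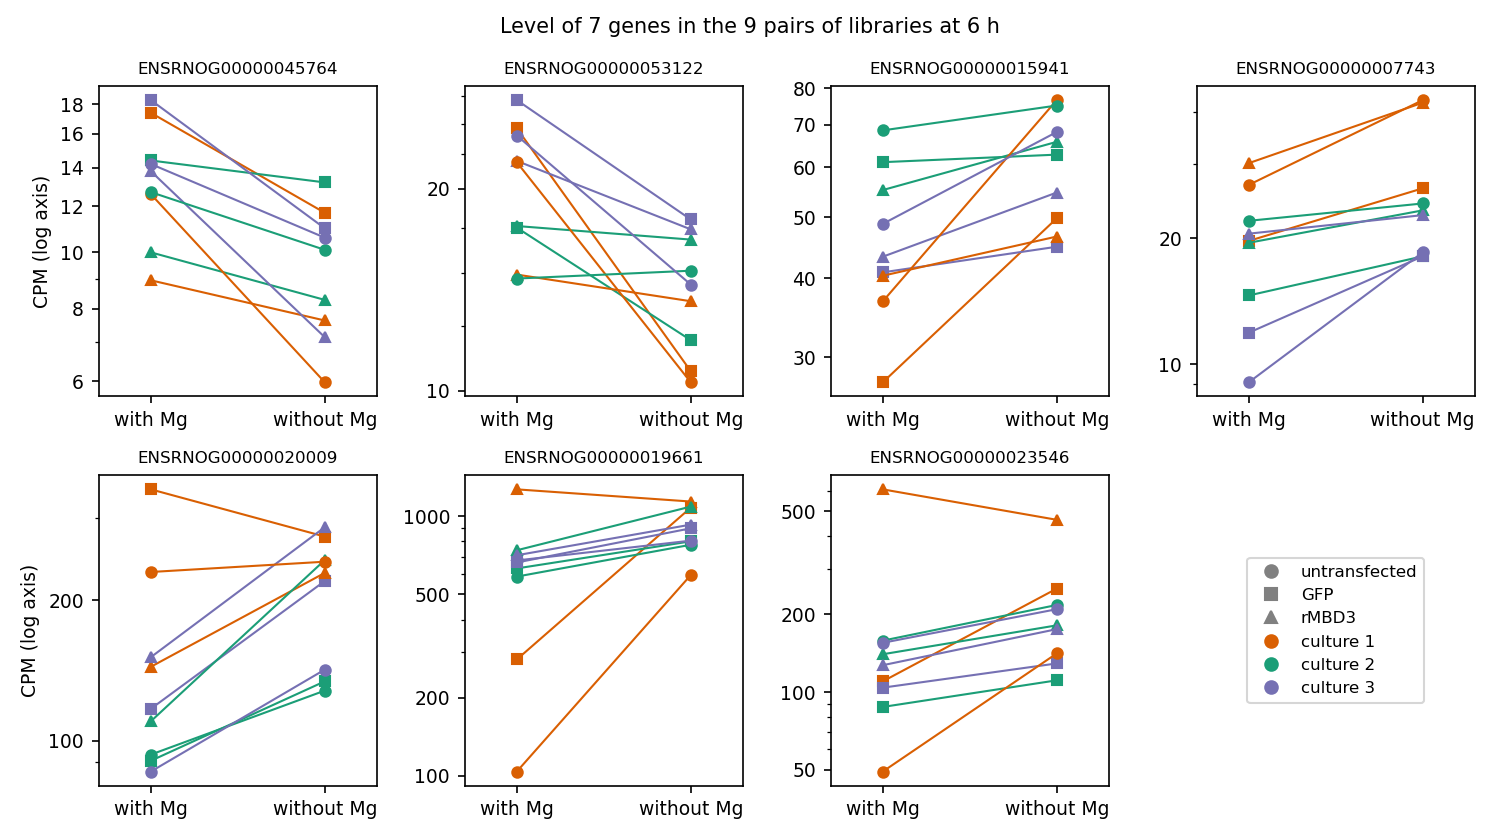
Level in CPM (log axis) of 7 genes with and without magnesium at 6 h; each line joins the libraries of the same construct (shape) and culture (colour). The upper row shows the 4 genes of lowest p under the naming rule, ENSRNOG00000045764 and ENSRNOG00000053122 lower and ENSRNOG00000015941 and ENSRNOG00000007743 higher without magnesium, and the lower row the 3 genes called in cultures 2 and 3, whose culture 1 lines, in orange, spread most.

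Genes that kept 1 direction in all 9 pairs were few. There were 64 (0.4%) higher and 60 (0.375%) lower without magnesium in every pair, and for 0 genes (0% in either direction) did the 9 libraries of one medium all lie above the 9 of the other. Their median log2 fold changes were 0.24 and -0.28, and 2 of the higher and 7 of the lower ones differed by 2-fold or more. The largest was the scarce ENSRNOG00000014464 described above, at a mean log2 CPM of -1.81. Others of the lower ones stood at -1.07, -0.59 and 0.38, levels at which the fold change rests on few counts. The lower genes were longer from first to last annotated exon (median span 62.3 kb) than the higher ones (14.6 kb), beside 21.6 kb over all genes tested.

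The same genes were looked up in the 2 h and 24 h comparisons, which use other libraries, each with its own magnesium controls. Those libraries share culture numbers and constructs with the ones at 6 h. Across 12489 genes the medium differences at 6 h also correlated with those at 2 h (r = 0.41) and 24 h (r = 0.36). Some agreement is therefore not particular to these genes. Of the 64 genes higher at 6 h, 54 were also higher at 2 h (84.4%, beside 52.8% of all genes) and 52 at 24 h (81.2%, beside 50.8%). Of the lower genes, 41 of 58 measured at 2 h were lower there (70.7%, beside 47.2%), and 41 of 59 at 24 h (69.5%, beside 49.2%). The median log2 fold changes at 2 h and 24 h were 0.08 and 0.10 for the higher and -0.07 and -0.10 for the lower genes. The medians at 6 h come from the libraries that chose these genes and are not comparable with them in size.

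Taken by construct, again 0 genes passed in any of the 3 in edgeR's test. In untransfected cultures 1206 genes (7.54%) had an unadjusted p below 0.05, 493 of them higher and 713 lower without magnesium. DESeq2 called 17 of the 19258 genes it tested. In GFP cultures the number was 1068 (6.68%), 463 higher and 605 lower, and DESeq2 called 2 of 19639. In rMBD3 cultures it was 216 (1.35%), 129 higher and 87 lower, and DESeq2 called 2 of 19639. Without culture 1 the unadjusted counts were 568 (3.58%) in untransfected, 514 (3.24%) in GFP and 270 (1.7%) in rMBD3 cultures, of 15862 genes, with 0 called by edgeR in each. The 3 counts do not show by themselves that the constructs responded differently, which the interaction terms test.

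No interaction passed either. The medium effect in GFP minus that in untransfected cultures had 0 genes called and 524 (3.28%) at an unadjusted p below 0.05 in edgeR, with 8 called by DESeq2. For rMBD3 minus GFP the numbers were 0, 713 (4.46%) and 13, and for rMBD3 minus untransfected 0, 635 (3.97%) and 10. DESeq2 tested 19639 genes for each interaction. In cultures 2 and 3 alone edgeR called 0 genes for each of the 3 interactions, and the unadjusted counts were 391 (2.47%), 346 (2.18%) and 272 (1.71%) in the same order. Over all cultures the 95% interval of the interaction had a median half-width of 0.56 over 12490 genes and lay within 2-fold for 65.1% of them for rMBD3 minus GFP, 68.8% for rMBD3 minus untransfected and 69.2% for GFP minus untransfected. For the remaining genes a difference in response of 2-fold lay inside the interval.

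Across those 12490 genes the log2 fold changes correlated at r = 0.33 between untransfected and GFP cultures, -0.07 between untransfected and rMBD3, and -0.22 between GFP and rMBD3. Without culture 1 the correlations were 0.05, 0.16 and -0.03 over 12489 genes, so all 3 values changed when culture 1 was left out. The sign between untransfected and rMBD3 changed. Between the untransfected and GFP pairs of the same culture r was 0.358, 0.106 and 0.331 in cultures 1, 2 and 3. Between the GFP and rMBD3 pairs it was -0.219, 0.0623 and 0.216. Culture 3 thus showed a similar value to culture 1 between untransfected and GFP. Leaving out culture 2 or culture 3 was not tested for the correlations between constructs. These are correlations over genes, which are not independent, and the constructs share culture numbers but no libraries. The pairs of culture 1 were the most spread. The SD of the log2 difference over genes was 0.66 in the untransfected and 0.63 in the GFP pair of culture 1, where 1288 (10.3%) and 1260 (10.1%) genes differed by 2-fold or more. In the other 7 pairs the SD was 0.24 to 0.48, and 55 (0.44%) to 626 (5.01%) genes did so. The differences of 2 pairs that shared a culture number correlated at -0.278 to 0.358 in culture 1, 0.0623 to 0.127 in culture 2 and 0.216 to 0.341 in culture 3, over 3 combinations each. A pair of culture 2 and a pair of culture 3 correlated at -0.217 to 0.0114 over 9 combinations.

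At 2 h the same model called 0 of 15705 genes, with 855 (5.44%) at an unadjusted p below 0.05, 394 (2.51%) higher and 461 (2.94%) lower, and 8 of 19406 called by DESeq2. At 24 h it called 0 of 16104, with 2108 (13.1%) unadjusted, 713 (4.43%) higher and 1395 (8.66%) lower without magnesium, and 291 of 19562 called by DESeq2. Fitted together over 54 libraries with one estimate of the spread, the 6 h comparison again had 0 genes called by edgeR, with 829 (4.83%) unadjusted. In that fit 2 h had 0 called and 361 (2.1%) unadjusted, and 24 h had 1316 of 17172 genes (7.66%) called and 3787 (22.1%) unadjusted. The biological coefficient of variation was 18.8% at 2 h and 35.4% at 24 h when each time was fitted alone.

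The change in the medium effect between times was tested directly in that joint fit. Between 6 h and 2 h edgeR called 0 genes, with 166 (0.967%) at an unadjusted p below 0.05, and DESeq2 called 6 of 17142. Between 6 h and 24 h edgeR called 0, with 1707 (9.94%) unadjusted and a lowest adjusted p of 0.0695, and DESeq2 called 47 of 17142. Across 12489 genes the log2 fold changes at 6 h correlated with those at 2 h at r = 0.41 and with those at 24 h at r = 0.36, from separate libraries that share culture numbers and constructs.

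The levels of the genes described above ranged widely over time. CPM was scaled separately at each time, so levels at different times compare only roughly. ENSRNOG00000045764 stood at 12.4 to 33.2 CPM at 2 h and 2.36 to 10.5 CPM at 24 h over both media, and its medium difference was -0.01 ± 0.07 at 2 h and -0.24 ± 0.21 at 24 h (SE). ENSRNOG00000020009 went from 145 to 638 CPM at 2 h to 3.18 to 131 CPM at 24 h. It was higher without magnesium by 0.54 ± 0.20 at 2 h, in 8 of 9 pairs (edgeR adjusted p = 0.856), and differed by -0.71 ± 0.47 at 24 h, with 4 of 9 pairs higher (edgeR adjusted p = 0.528). Both genes were thus at an intermediate level at 6 h.

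For ENSRNOG00000015941 and ENSRNOG00000007743, higher without magnesium at 6 h in all 9 pairs, the range of levels lay higher at 24 h than at 2 h. ENSRNOG00000015941 stood at 13.8 to 40.4 CPM at 2 h and 32.3 to 128 CPM at 24 h, with medium differences of 0.09 ± 0.10 and 0.27 ± 0.13 (SE). ENSRNOG00000007743 stood at 4.03 to 24.4 CPM at 2 h and 16.2 to 72.1 CPM at 24 h, with differences of 0.12 ± 0.15 and 0.10 ± 0.18. Of ENSRNOG00000053122, at 18.8 to 57.9 CPM at 2 h and 0.542 to 26.4 CPM at 24 h, the differences were -0.07 ± 0.13 and -0.91 ± 0.51. None of these passed in edgeR's test.

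The described genes showed no single relation between time course and medium difference, since ENSRNOG00000020009 was lower at 24 h than at 2 h but higher without magnesium at 6 h. All genes were then grouped by their change from 2 h to 24 h over both media, which uses no 6 h library: of 16831 genes tested there, 6583 (39.1%) were higher and 5699 (33.9%) lower at 24 h. Of the first group 6345 were tested at 6 h, with a median medium difference of 0.07 and 29.7% lower without magnesium. Of the second group 5518 were tested, with a median of -0.09 and 73.5% lower, beside 50.6% of all genes. At an unadjusted p below 0.05, 410 (6.46%) of the genes higher at 24 h were higher without magnesium at 6 h and 42 (0.662%) lower, and 30 (0.544%) of the genes lower at 24 h were higher and 423 (7.67%) lower. Over all genes the shares were 3.22% higher and 3.52% lower, so the totals of both groups, 7.12% and 8.21%, were near the 6.73% of all genes and the difference lay in the direction. The 4020 genes not called between 2 h and 24 h had a median of -0.01. In cultures 2 and 3 alone, with the same groups, the median was 0.04 for the genes higher at 24 h (36.9% lower without magnesium) and -0.04 for those lower at 24 h (62.9% lower), beside 48.6% of all genes.

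By pair this pattern was uneven. The 1365 genes at least 4-fold lower at 24 h than at 2 h had a median difference at 6 h of -0.45, 0.03 and -0.38 in untransfected cultures 1, 2 and 3, of -0.64, -0.03 and -0.28 in GFP cultures, and of 0.15, 0.18 and -0.13 in rMBD3 cultures. The 517 genes at least 4-fold higher at 24 h had medians of 0.20, -0.05 and 0.52 when untransfected, 0.91, 0.00 and 0.20 with the GFP virus, and -0.13, -0.17 and 0.02 with the rMBD3 virus. Untransfected and GFP cultures 1 and 3 carried the shift, culture 2 of both lay near 0, and rMBD3 cultures 1 and 2 lay on the other side.

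The medium differences were also ordered by gene span, the distance from a gene's first to its last annotated base. Among the 4943 genes spanning 5 to 20 kb the median difference was 0.02 and 45% were lower without magnesium. The median was -0.04 at 100 to 200 kb (1286 genes, 59.9% lower), -0.11 at 200 to 500 kb (714 genes, 70.9% lower) and -0.16 above 500 kb (200 genes tested of 221, 80% lower). Above 500 kb, 35 genes (17.5%) had an unadjusted p below 0.05, beside 6.73% of all genes, and all 35 were lower without magnesium, with 0 past the adjusted threshold in edgeR. Genes spanning over 200 kb had a lower median than those of 20 kb or less within each of 3 equal classes of level, at -0.16 against -0.04 in the lowest, -0.12 against 0.01 in the middle and -0.09 against 0.04 in the highest.

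The pairs behind this median again differed. For the genes above 500 kb it was -0.62, -0.05 and -0.26 in untransfected cultures 1, 2 and 3, -0.44, -0.02 and -0.22 with the GFP virus, and 0.09, 0.07 and -0.13 with the rMBD3 virus, so 7 of 9 pairs were lower. The pair with the lowest median, untransfected culture 1, was also the one with the widest gap in mitochondrial share (2.04% without and 4.90% with magnesium), whose part in the result was not tested. In cultures 2 and 3 alone the median for 199 such genes was -0.08. At 2 h 8 of 9 pairs were lower (-0.34 to 0.00, median -0.09) and at 24 h 7 of 9 (-0.89 to 0.01, median -0.35).

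**Figure D4:**
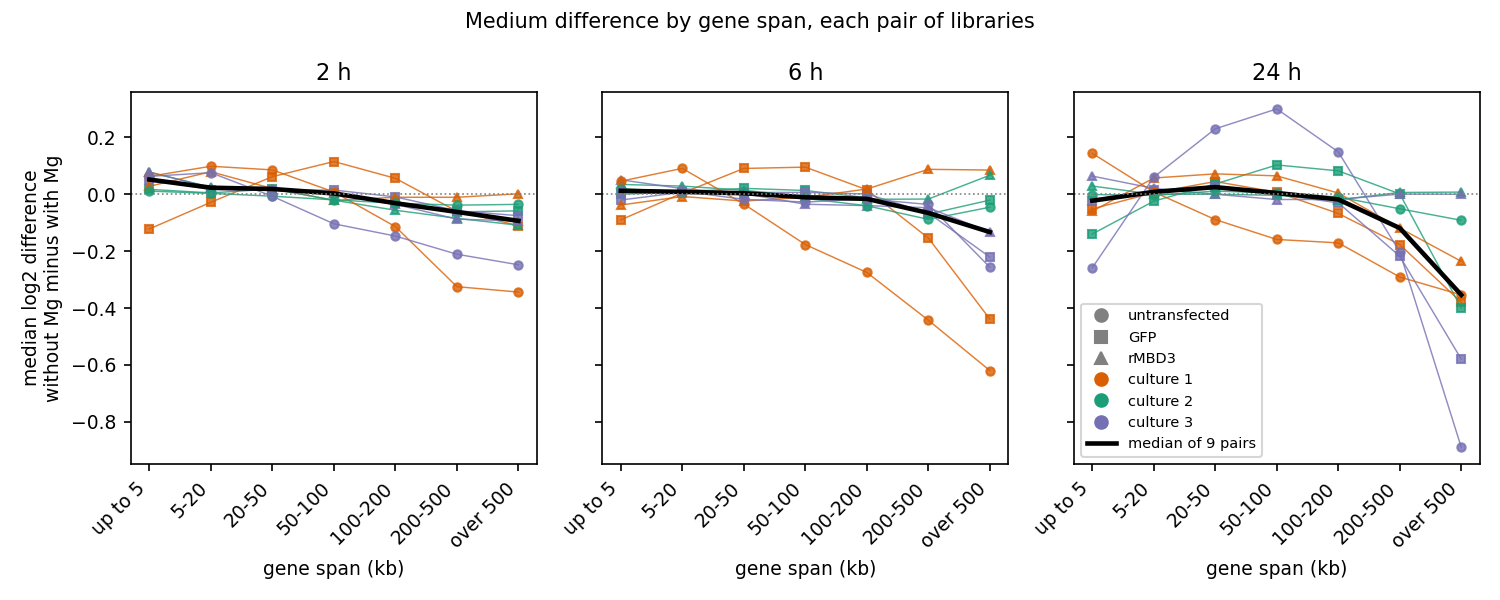
Median log2 difference without minus with magnesium of genes by span class in kb, at 2, 6 and 24 h; each thin line is 1 pair of the same construct (shape) and culture (colour), and the thick black line is the median of the 9 pairs. At 6 h the genes over 500 kb lie between -0.62 and 0.09, with 7 of 9 pairs below 0.

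The mitochondrial genome went with the share given above. Of its 37 genes 23 were tested, and 19 were lower without magnesium (82.6%, beside 50.6% of all genes). The median log2 fold change was -0.17, and 0 had an unadjusted p below 0.05 in edgeR's test, with 0 past the adjusted threshold. These genes lie on the same genome and are not independent. Their summed share of the counts was higher without magnesium in 5 of 9 pairs.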

How the data were processed

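Messenger RNA libraries made with a stranded kit were counted per gene. The deposited counts are raw read pairs from featureCounts 2.0.0 per the file headers (strand setting 2, mapping quality of at least 3, only primary alignments, Ensembl release 105 of mRatBN7.2); the labels' protocols name STAR and rn6. Coordinates and exonic lengths are those of the count table. The authors' log2 table was not used.

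The filter was edgeR's filterByExpr (count of 10, total of 15), and libraries were scaled by TMM and tested with edgeR 4.0.16 in R 4.3.3 (robust quasi-likelihood, Benjamini-Hochberg adjustment over all genes tested, threshold 0.05). The model at 6 h held construct, culture number and medium; construct effects came from 6 group coefficients plus culture number, and times from all 54 libraries with construct, culture and medium within time. DESeq2 1.42.0 used genes with a total of at least 10 (in the joint fit of the times, the genes kept by filterByExpr) and left out genes whose fit did not converge. Log2 CPM of libraries used a prior count of 2. The scripts were tested on simulated data.

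Culture numbers come from the labels, which give separate cell cultures. Deviations from group means correlated at 0.153 to 0.562 in the 9 pairs of the same construct and culture (mean 0.346). Over all 45 combinations of libraries from different groups that share a culture number they correlated at 0.126 to 0.593 (mean 0.332). The number was therefore treated as pairing the libraries, though sharing the construct as well made them hardly more alike. No 2 libraries of a group looked like copies (chi-square per gene 16.4 to 320 over 18 pairs).

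Genes to name were those passing the threshold, or else those of lowest p, with a mean log2 CPM of at least 1 and 1 sign in at least 8 of 9 pairs; 2 of 10 per direction are printed because symbols were lacking. The 21 gene lists with 418 symbols and the marker lists were not analysed here. The comparison and the lists were chosen with earlier results of these data known, and the groups by span and by change over time were chosen after seeing the data, as were their values and the correlations between constructs without culture 1.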

Additional observations from a re-analysis of the deposited data

How the results depend on the processing

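The count of 0 genes for the pooled difference at 6 h stood without the replicate block (0), with a block for each of the 9 pairs (0), with relative log expression factors, with no low-count filter, with each construct left out, and in the fit of 54 libraries. It ran from 0 to 3 when 1 culture was left out, with 3 without culture 1, and was 0 without any single pair. DESeq2 gave 18, DESeq2 on the filtered genes 1, and leaving out the untransfected and GFP pairs of culture 1 gave 1, also with a replicate block by construct (1, ENSRNOG00000020009, edgeR adjusted p = 0.000606); these last 3 and the single-pair omissions were chosen after seeing the data. DESeq2 called 6 genes for 6 h against 2 h, 47 for 6 h against 24 h, 8 at 2 h and 291 at 24 h. By construct it called 17 in untransfected, 2 in GFP (ENSRNOG00000063271 and ENSRNOG00000007573) and 2 in rMBD3 cultures (ENSRNOG00000025143 and ENSRNOG00000003895). The fitted log2 fold changes were -21.9 and -17.5 for the 2 in GFP and 23.7 and -18.9 for the 2 in rMBD3 cultures. For the interactions of GFP with untransfected, rMBD3 with GFP and rMBD3 with untransfected DESeq2 called 8, 13 and 10. How many libraries had counts behind these calls was not examined. The difference of 6 h against 24 h ran from 0 to 2 genes when 1 culture was left out, with ENSRNOG00000065346 and ENSRNOG00000068425 called without culture 1. The cause of these changes was not tested. Removing the replicate block left 0 calls in each of the other comparisons. The 7 genes kept their sign over 24 settings. That was largely fixed by their choice, since most settings refit nearly the same libraries that chose them. On the log2 scale ENSRNOG00000045764 ran from -0.65 to -0.43, ENSRNOG00000053122 from -0.69 to -0.34 and ENSRNOG00000015941 from 0.22 to 0.51. ENSRNOG00000007743 ran from 0.37 to 0.55, ENSRNOG00000020009 from 0.39 to 0.79, ENSRNOG00000019661 from 0.32 to 0.93 and ENSRNOG00000023546 from 0.28 to 0.69. The median of genes over 500 kb ran from -0.29 to -0.05. With 3 numbered cultures, of which 1 stood apart, differences below about 1.5-fold, and possibly larger ones, could go uncalled for many genes.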
